A study of Mus musculus with 12 samples.

Results

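Forelimbs of E12.5 mouse embryos in which Impdh2 was deleted in the limb mesenchyme were compared with wild-type (WT) forelimbs of the same age. The comparison used 4 of the 12 RNA-seq libraries of the series: 2 from WT forelimbs and 2 from forelimbs of the conditional knockout called Prx-cKO. These 4 are the libraries of the forelimb count table, and every expressed gene in it entered the tests. The knockout was made specific to limb mesenchymal progenitors by a driver named after Prx, an older name of Prrx1. The driver uses a regulatory sequence of that gene that is active in early limb mesenchyme. The labels give no treatment of the embryos, no further allele and no strain. The tissue was the whole forelimb, so it also held ectoderm, vessels, blood, nerve and migrating muscle precursors, in which that driver is not known to act. Whether a library came from 1 embryo or from several, and from how many litters, is not given in the labels, but the replicates of each genotype differed in Xist and Ddx3y, as given below, so they came from different embryos. The p-values measure only the spread between these libraries.

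Impdh2 encodes inosine monophosphate dehydrogenase 2, the rate-limiting enzyme of guanine nucleotide synthesis, which turns IMP into XMP on the way to GTP. Dividing cells use GTP for RNA and DNA synthesis and for ribosome production, and a shortage of GTP disturbs the nucleolus and can stabilise p53, a transcription factor that halts the cell cycle or triggers cell death. In the limb bud at this stage the mesenchyme is being patterned by Hox, T-box, Fgf, Shh and Wnt genes, and its core condenses into cartilage under Sox9. Muscle precursors, vessels and macrophages enter the limb from outside the mesenchyme.

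Total counts ran from 28892215 to 69466572 per library. Each genotype held 1 library with high Xist (92566 and 139968 counts) and 1 with reads of the Y-linked Ddx3y (4579 and 1152 counts), so sex was balanced between the genotypes. The first principal component, with 46.3% of the variance, split replicate 1 from replicate 2, and the second, with 33.3%, split WT from Prx-cKO. The 2 WT libraries differed from each other by a median of 0.343 on the log2 scale over the tested genes, against 0.262 between the 2 Prx-cKO libraries. WT replicate 2 stood apart from the other 3 libraries in the level of long against short genes, which is given below after the ribosomal and respiratory genes.

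The tissue label was checked on limb identity genes. Tbx5, the T-box factor of the forelimb, was at 110.0 TPM (a level per unit of exonic length) on average in WT, whereas Tbx4 and Pitx1, which mark the hindlimb, were at 12.3 and 2.64. In Prx-cKO the 3 levels were 51.5, 7.34 and 4.11 TPM. Tbx5 was thus the highest of the 3 in both genotypes. All further values are normalised counts in CPM, with library sizes adjusted by the TMM method, unless TPM is named. Their sum over all tested genes was 966229 and 967240 in WT against 1004360 and 1065360 in Prx-cKO. Values of a genotype are given in the order replicate 1 and replicate 2.

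Impdh2 lies on the plus strand of chromosome 9 (108560286 to 108565584 in GRCm38), and its exons overlap those of Ndufaf3. The 2 WT libraries had 260.4 and 272 CPM and the 2 Prx-cKO libraries 169.7 and 199 CPM. The knockout libraries were the lower, with 69.3% of the WT mean remaining, a log2 fold change of −0.53 (SE 0.16) that did not pass (edgeR quasi-likelihood, adjusted p 0.443). The counts cover the whole gene and the labels do not say which exons were removed, so reads from outside the deleted part and from cells that the driver does not reach both remain in this value. In bulk tissue, fewer cells of a type and less RNA per cell cannot be told apart, here and throughout. Its paralogue Impdh1, which catalyses the same reaction, was at 35.0 and 29 CPM in WT against 39.2 and 43.5 in Prx-cKO. Per unit of length, Impdh2 was the higher of the pair in both genotypes, at 246 against 27.3 TPM in WT and 153 against 32.1 TPM in Prx-cKO.

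Across the 19987 genes tested, edgeR called 0 at an adjusted p under 0.05 (0%), and the smallest adjusted p was 0.118. Without adjustment, 1174 genes (5.87%) were higher and 921 (4.61%) lower in Prx-cKO at a p under 0.05. These are termed nominally higher or lower here, and none of them is a call. The 2 genotypes did not overlap, with Prx-cKO the higher, in 4428 genes (22.2%), and with Prx-cKO the lower in 4206 (21%). The edgeR fit with its older dispersion method and limma-voom also made 0 calls, whereas DESeq2 called 393 genes, 201 higher (1.01%) and 192 lower (0.961%), and all 393 were nominal in edgeR. With WT replicate 1 left out, edgeR made 603 calls, and with WT replicate 2 left out it made 104. The 2 sets had 44 genes in common, 23 higher in both fits, 18 lower in both and 3 called in opposite directions. No call was made with either Prx-cKO library left out. With a WT library left out, the spread within genotypes came from the same 2 Prx-cKO libraries in both fits. The 2 sets are therefore not independent of each other. Scaling by library size alone turned the nominal split from 1174 higher and 921 lower to 756 and 1371. Gene groups and genes without overlap are read against these shares, and the median log2 fold change of all tested genes was −0.03. The nominal shares depended on expression level, taken as the mean of the higher genotype. Of 2573 genes over 100 CPM, 14.2% were nominally higher and 4.47% lower, with a median of 0.12. Of 3463 genes from 5 to 20 CPM, the shares were 4.30% and 5.78%, with a median of −0.08. Gene lists were not matched for level, so shares of lists with high CPM are less far from their background than they appear. Genes named from a list were in part taken for their smallest p, so a lack of overlap in them follows partly from that choice.

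The largest differences held several targets of p53 on the higher side and genes of cartilage and limb pattern on the lower side. Among nominal genes with non-overlapping groups and at least 5 CPM, and leaving out gene models known only by a Gm, Rik or clone name, genes of chromosome Y and Xist, the 12 largest on the higher side were Ano3, Pcdhga1, Eda2r, Ptprv, Ccng1, Ube2v1, Inka2, Sp5, Cdkn1a, Rnasek, Pax3 and Shh. The 12 on the lower side were Eomes, Acan, Ebf1, Matn1, Hpse2, Yy2, Nkx3-2, Rflna, Miat, Pax9, Gdf5 and Col11a2. DESeq2 also called each of these 24 genes except Ube2v1 and Shh.

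**Figure D1:**
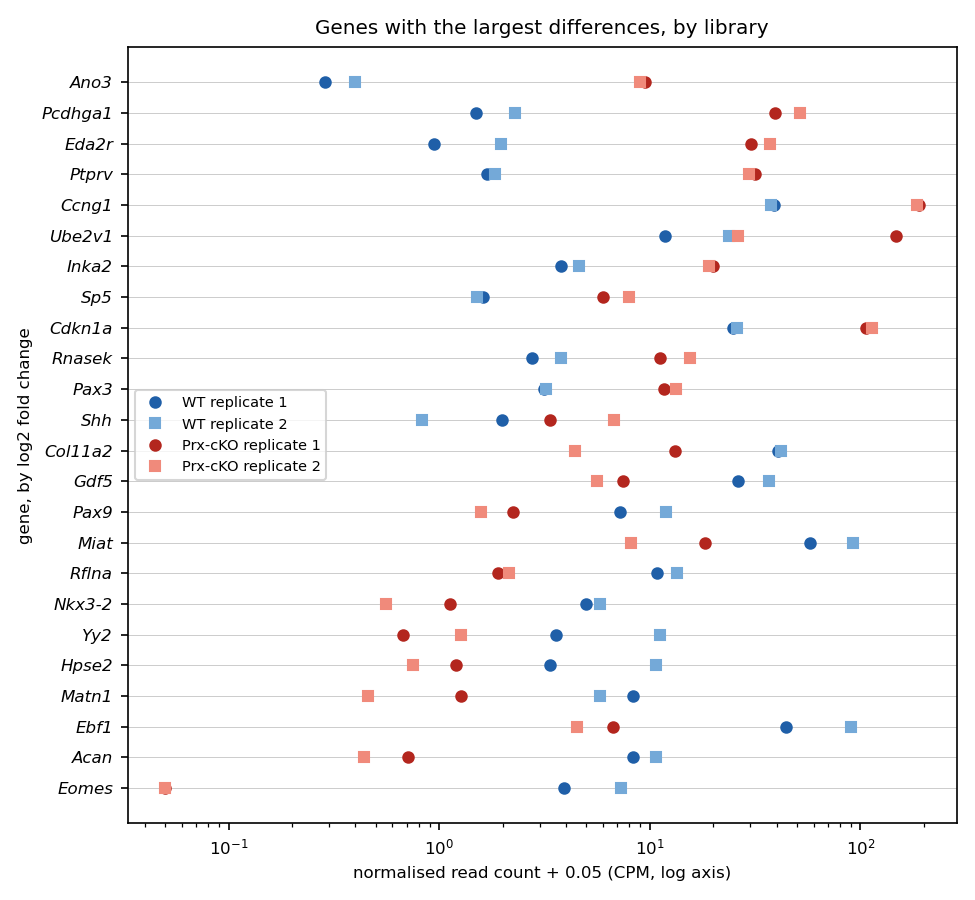
Normalised read counts of the 24 genes with the largest differences (models with a Gm, Rik or clone name left out), in CPM plus 0.05 on a log axis, with 1 point per library. The blue WT points and the red Prx-cKO points do not overlap for any gene, which the rule required, and Ube2v1 is far higher in 1 Prx-cKO library than in the other.

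Genes of cell cycle arrest and DNA repair that p53 activates lay on the higher side. Of 27 tested, 14 were nominally higher and 0 lower, and DESeq2 called 8. The median log2 fold change was 0.65, with a range of 0.55 to 0.80 over all settings tried. Ccng1 (chromosome 11, 40748552 to 40755311), which encodes cyclin G1, was at 38.7 and 37.5 CPM in WT against 191 and 186 in Prx-cKO, a log2 fold change of 2.31 (SE 0.14). Cdkn1a (chromosome 17, 29090976 to 29100727), which encodes the p21 inhibitor of cyclin-dependent kinases, was at 24.8 and 25.9 CPM in WT against 107 and 114 in Prx-cKO, a log2 fold change of 2.12 (SE 0.15). In both genes the libraries of a genotype were close to each other compared with the distance between genotypes. Ptprv, a phosphatase-like target of p53, was at 1.63 and 1.78 CPM in WT against 31.5 and 29.5 in Prx-cKO. Phlda3, an inhibitor of Akt signalling, was at 28.5 and 25.7 CPM in WT against 85.3 and 115 in Prx-cKO, and Sesn2, which restrains mTORC1, at 15.5 and 18.6 against 45.9 and 63.1. Both knockout libraries were the higher in these 3 as well, and DESeq2 called all 5 genes. Zmat3, an RNA-binding target, was at 34.2 and 36.5 CPM in WT against 70.1 and 85.3 in Prx-cKO. Gtse1, a regulator of p53 in G2, was at 49.9 and 52.3 CPM in WT against 96.3 and 105 in Prx-cKO, and Psrc1, a spindle protein, at 89.4 and 70.1 against 150.4 and 148. These 3 differed by a smaller factor, without overlap, and DESeq2 called each.

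Targets of p53 that act in cell death were higher to a similar degree. Of 15 tested, 8 were nominally higher and 0 lower, 5 were called by DESeq2, and the median was 0.81 (0.70 to 0.92 over all settings). Eda2r, a death receptor of the TNF receptor family on chromosome X, was at 0.898 and 1.91 CPM in WT against 30.2 and 37.2 in Prx-cKO, a log2 fold change of 4.53 (SE 0.39). Bax, the pore-forming executioner of mitochondrial death, was at 93.1 and 80.8 CPM in WT against 179.6 and 241 in Prx-cKO. Among the BH3-only proteins, Pmaip1 (Noxa) was at 23.3 and 22.6 CPM in WT against 41.8 and 45.5 in Prx-cKO and Bbc3 (Puma) at 11.3 and 8.05 against 18.2 and 20.2. In these 4 genes both Prx-cKO libraries were above both WT libraries. Aen, a nuclease of apoptosis, was at 33.4 and 12.1 CPM in WT against 71.7 and 80.0 in Prx-cKO, so its WT libraries differed from each other by more than its Prx-cKO libraries did.

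The wider Bcl2 family was split. Of 18 members, 3 were nominally higher (Bax, Pmaip1 and Bbc3) and 2 lower, with a median of 0.16 (0.07 to 0.29 over all settings). Bmf, a BH3-only activator of death, was at 60.6 and 60.2 CPM in WT against 34.9 and 38.4 in Prx-cKO. Bcl2, which protects from death, was at 28.4 and 31.5 CPM in WT against 19.6 and 18.2 in Prx-cKO. These 2 were the nominally lower members, so a promoter of death and a protector lay on the same side. Mcl1, another protector, was at 192 and 196 CPM in WT against 188 and 228 in Prx-cKO, with overlapping groups.

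The mRNA of p53 and of its regulators differed less. Trp53 was at 197 and 201 CPM in WT against 269 and 267 in Prx-cKO, a log2 fold change of 0.43 (SE 0.14), and was the 1 nominally higher member of 17. The median of the list was −0.07. Ccng2, a relative of cyclin G1, was at 125 and 121 CPM in WT against 97.3 and 85.9 in Prx-cKO, the opposite direction to Ccng1. Mdm2, the ubiquitin ligase that degrades p53 and is itself a target, was at 63.4 and 54.5 CPM in WT against 64.8 and 47.2 in Prx-cKO, with overlapping groups.

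Stress programmes other than p53 differed by gene. In the integrated stress response list 3 of 20 were nominally higher and 2 lower, with a median of 0.13 (0.04 when either WT replicate 2 or Prx-cKO replicate 1 was left out). Among the higher genes was Sesn2, given above with the p53 targets, and it was the 1 member that DESeq2 called. Atf4, its central factor, was at 205 and 166 CPM in WT against 214 and 189 in Prx-cKO, and the groups overlapped. Asns, its target in asparagine synthesis, was at 37.5 and 44.2 CPM in WT against 52.7 and 59.0 in Prx-cKO. Slc7a11, the cystine transporter, was at 31.4 and 33.4 CPM in WT against 21.9 and 22.0 in Prx-cKO and so lay on the other side. The other nominally lower member was Ddr2, a collagen receptor that the list held although it is not a core gene of this response. Among 21 antioxidant genes 9 were nominally higher and 1 lower, with a median of 0.40. Hmox1, heme oxygenase 1, was at 18.0 and 19.3 CPM in WT against 33.2 and 31.5 in Prx-cKO, and the peroxiredoxin Prdx1 at 452 and 513 against 708 and 793, both without overlap. Interferon and inflammation genes had a median of −0.01, with 1 of 17 nominally higher and 1 lower. Heat shock and chaperone genes had a median of 0.23 (0.38 without Prx-cKO replicate 1 and 0.08 without replicate 2), with 3 of 16 nominally higher and 0 lower.

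Genes that handle guanine nucleotides lay on the higher side apart from Impdh2. Of 13 tested, 11 had a positive log2 fold change, 5 were nominally higher and 1, Impdh2, was nominally lower. The median was 0.37, with a range of 0.25 to 0.46 over all settings. Among the nucleoside diphosphate kinases, which make GTP from GDP, Nme4 was at 104 and 88.5 CPM in WT against 157 and 204 in Prx-cKO, Nme2 at 502 and 389 against 659 and 824 and Nme1 at 282 and 176 against 349.6 and 384. Nme1 and Nme2 share exons with a read-through model, so the split between them is uncertain. Guk1, guanylate kinase, was at 56.9 and 52.6 CPM in WT against 68.8 and 89.8 in Prx-cKO, and Hprt, which salvages guanine and hypoxanthine, at 39.1 and 31.5 against 47.2 and 54.8. In each of these 5 both Prx-cKO libraries were the higher. Gmps, the GMP synthetase directly after the Impdh2 step, was at 160.1 and 161 CPM in WT against 160.1 and 179 in Prx-cKO, and the groups overlapped. The remaining members, Nme6, Gmpr, Gmpr2, Samhd1 and Nt5c2, had log2 fold changes of 0.41, 0.23, 0.22, 0.14 and −0.05, and none was nominal.

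Other routes of nucleotide synthesis and their supply of carbon units were shifted by a like amount. De novo purine synthesis had a median of 0.39 (0.29 to 0.55 over all settings), with 7 of 14 nominally higher and 0 lower. With a term for the Xist-high libraries in the fit, 2 of 14 (14.3%) were nominally higher, against 2.98% of all genes. Prps1, which makes the ribose donor for purines, was at 56.2 and 49.2 CPM in WT against 73.7 and 93.0 in Prx-cKO. Pyrimidine and deoxynucleotide synthesis had a median of 0.40, with 7 of 16 nominally higher and 0 lower. Tk1, thymidine kinase 1, was at 82.3 and 75.0 CPM in WT against 127 and 151 in Prx-cKO, and Rrm2, a subunit of ribonucleotide reductase, at 232 and 228 against 335 and 401. None of these 3 genes overlapped between genotypes. Serine synthesis and one-carbon metabolism had the largest median of the nucleotide lists, 0.54, with 9 of 14 nominally higher and 0 lower. Phgdh, which starts serine synthesis, was at 230.2 and 272 CPM in WT against 427 and 564 in Prx-cKO, a log2 fold change of 0.98 (SE 0.20). Mthfd2, the mitochondrial folate enzyme, was at 39.0 and 36.3 CPM in WT against 64.6 and 76.3 in Prx-cKO, a log2 fold change of 0.91 (SE 0.17). Both were called by DESeq2 (adjusted p 0.00801 and 0.00405) but not by edgeR. Mycn, a Myc family factor of limb mesenchyme, was at 33.7 and 83.9 CPM in WT against 131 and 156 in Prx-cKO, with a spread within WT of more than 2 times, while the Myc network list had a median of −0.05.

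Cartilage genes lay on the lower side. Of 18 regulators of chondrogenesis tested, 11 were nominally lower and 0 higher, and of 18 cartilage matrix genes 12 were nominally lower and 0 higher. The medians were −1.09 and −1.43, with ranges of −1.24 to −1.03 and −1.67 to −1.22 over all settings, and DESeq2 called 8 and 10 members lower. Sox9 (chromosome 11, 112782224 to 112787760), the master regulator of cartilage, was at 109 and 136 CPM in WT against 49.6 and 42.9 in Prx-cKO. Its partners Sox5 and Sox6 were at 23.7 and 38.8 CPM in WT against 9.39 and 10.7 in Prx-cKO and at 34.7 and 39.7 against 14.8 and 11 in the same order. No member of this trio overlapped between genotypes. Nkx3-2, which acts with Sox9, was at 4.91 and 5.73 CPM in WT against 1.08 and 0.509 in Prx-cKO. Trps1 and Foxc1, other transcription factors of the skeletal condensation, were at 105 and 139 CPM in WT against 55.4 and 40.3 in Prx-cKO and at 56.6 and 63.8 against 29.2 and 27.6. Ihh, the hedgehog ligand of cartilage, was low in all libraries, at 1.51 and 2.22 CPM in WT against 0.417 and 0.235 in Prx-cKO. All 4 of these were nominally lower. Pth1r, the receptor of the Ihh feedback loop, was at 92.8 and 87.9 CPM in WT against 96.6 and 108 in Prx-cKO and was not nominal.

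In the matrix, the share that remained differed between genes. Col2a1, the main collagen of cartilage, was at 489 and 506 CPM in WT against 214 and 166 in Prx-cKO, and 38.2% of the WT mean remained. Acan, the aggregating proteoglycan, was at 8.29 and 10.7 CPM in WT against 0.661 and 0.391 in Prx-cKO, with 5.54% remaining. Of the minor collagens, Col11a1 kept 53.4% of the WT mean, Col9a1 36.1%, Col9a2 30.6%, Col9a3 29.8% and Col11a2 21.2%. Acan and Matn1, matrilin 1 at 8.24 and 5.74 CPM in WT against 1.22 and 0.411 in Prx-cKO, were thus at a smaller share of WT than any of these 6 collagens. The knockout libraries were unequal for Col11a2, at 13.1 and 4.37 CPM, and for Col9a2, at 40.9 and 17.3 CPM, with replicate 2 the lower. The summed level of the matrix list was 1061 and 1130.3 CPM in WT and 473 and 354 CPM in Prx-cKO, so the genotypes were farther apart than the knockout libraries were from each other. Papss2, which supplies activated sulphate for cartilage proteoglycans and was in no list, was at 14.6 and 16.4 CPM in WT against 5.81 and 2.39 in Prx-cKO.

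Other skeletal and connective tissue lists had smaller medians. Joint interzone genes had a median of −0.22 (−0.56 without WT replicate 1, then with 7 nominally lower), with 4 of 14 nominally lower and 0 higher. Gdf5, the growth factor of the interzone, was at 26.2 and 36.8 CPM in WT against 7.41 and 5.56 in Prx-cKO, a log2 fold change of −2.29 (SE 0.28). The factors Osr2 and Erg were at 32.7 and 35.6 CPM in WT against 20.8 and 17.8 in Prx-cKO and at 16.5 and 19.3 against 9.63 and 8.71. None of these 3 overlapped between genotypes. Tendon genes had a median of −0.15 (−0.03 without WT replicate 2, then with 1 nominally lower and 1 higher), with 4 of 17 nominally lower and 0 higher, among them Mkx, a tendon regulator, at 8.22 and 12.1 CPM in WT against 4.0 and 6.36 in Prx-cKO. For the osteoblast list the median was −0.06, with 1 of 16 nominally higher and 1 lower, and its collagen Col1a2 was at 563 and 564 CPM in WT against 546 and 558 in Prx-cKO, within a few percent in all 4 libraries. Collagens outside cartilage had a median of −0.07, with 2 of 24 nominally lower and 0 higher. Matrix and adhesion genes had a median of −0.05, with 5 of 30 nominally lower and 0 higher. Has2, the hyaluronan synthase of limb mesenchyme, was at 39.4 and 39.5 CPM in WT against 24.8 and 22.8 in Prx-cKO, and Vcan, versican, at 443 and 689.9 against 347 and 320.2, both lower in both knockout libraries.

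Transcription factors of the limb mesenchyme lay on both sides. Of 37 tested, 7 were nominally lower and 3 higher, and the median of 0.05 took either sign over the settings. Prrx1, after which the driver is named, was at 304 and 397 CPM in WT against 175 and 216 in Prx-cKO. Its paralogue Prrx2 was at 164 and 163 against 132 and 166. Twist1, a general mesenchymal factor, was at 258 and 196 against 259.8 and 250.2. Only Prrx1 of these 3 separated the genotypes. Lmx1b, which specifies dorsal limb, was at 115 and 142 CPM in WT against 59.7 and 66.9 in Prx-cKO. Lhx9, a factor of the distal mesenchyme, was at 163 and 183 CPM in WT against 81.0 and 72.5 in Prx-cKO. Pax9, which acts in the anterior limb, was at 7.18 and 11.9 CPM in WT against 2.19 and 1.53 in Prx-cKO. In these 3 genes both Prx-cKO libraries were below both WT libraries, and DESeq2 called all 3. Hand2, which sets up the posterior Shh domain, was at 165 and 154 CPM in WT against 101 and 114 in Prx-cKO. Pdgfra, a receptor found across the mesenchyme, was at 406 and 466 CPM in WT against 248 and 252 in Prx-cKO.

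T-box genes were mostly on the lower side. Of 12 tested, 5 were nominally lower and 0 higher, with a median of −0.51. Eomes (chromosome 9, 118478212 to 118486132) was at 3.87 and 7.25 CPM in the WT libraries and had 0 counts in both Prx-cKO libraries, so it was at least 68.2-fold lower against a floor of 3 counts per library. Tbx22 was at 3.24 and 2.94 CPM in WT against 0.0696 and 0.117 in Prx-cKO. Tbx18, a marker of the proximal and anterior mesenchyme, was at 171 and 172 CPM in WT against 95.2 and 87.9 in Prx-cKO, and Tbx5 at 160.1 and 199 against 97.0 and 91.2. All 4 genes separated the genotypes without overlap. Tbx15 at 187 and 163 CPM in WT against 152 and 136 in Prx-cKO and Tbx3 at 76.3 and 73.9 against 53.3 and 65.1 were not nominal, while Tbx3os1, a transcript from the opposite strand at Tbx3, was at 21.7 and 17.7 CPM in WT against 6.5 and 5.34 in Prx-cKO. Strand use in the counting is not given in the sources used here, so reads of Tbx3 and Tbx3os1 cannot be told apart with certainty.

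Hox genes differed by their position in the clusters. The posterior genes of HoxA and HoxD, which pattern the limb along its length, were lower, and the anterior genes of HoxB were higher. In HoxA paralogues 9 to 13, 4 of 4 genes had a negative log2 fold change, with a median of −0.69, and in HoxD paralogues 9 to 13 it was 5 of 5, with a median of −0.72. Summed over the genes, the HoxA set was at 468 and 591 CPM in WT against 268 and 350.0 in Prx-cKO, and the HoxD set at 711 and 937 against 402 and 469.7. Both knockout libraries were the lower in both sets. Hoxd13, which acts in the digits, was at 291 and 401 CPM in WT against 144 and 134 in Prx-cKO, a log2 fold change of −1.32 (SE 0.20). Hoxd10 was at 118 and 121 CPM in WT against 50.4 and 56.5 in Prx-cKO and Hoxa9 at 186 and 213 against 96.8 and 117. Hoxd12, in contrast, was at 102 and 152 CPM in WT against 85.8 and 106 in Prx-cKO, with overlapping groups.

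In HoxB paralogues 1 to 8, all 8 tested genes had a positive log2 fold change, with a median of 0.91. Their sum was 92.6 and 53.9 CPM in WT and 128 and 119 CPM in Prx-cKO. WT replicate 2 was the lowest of the 4, and both knockout libraries also lay above WT replicate 1. Hoxb2 was at 15.5 and 12.8 CPM in WT against 26.6 and 26.0 in Prx-cKO and Hoxb6 at 5.91 and 3.30 against 8.63 and 8.63, the 2 nominally higher genes of the cluster. Anterior HoxA and HoxD genes had medians of 0.24 and 0.44, but their sums in WT replicate 1 were above those of both knockout libraries, at 148 and 102 CPM in WT against 146 and 143 in Prx-cKO for HoxA and 58.0 and 35.4 against 56.6 and 49.0 for HoxD. HoxC paralogues 9 to 13 were low throughout, at a sum of 18.5 and 21.3 CPM in WT and 18.9 and 15.8 CPM in Prx-cKO. Over all 38 tested Hox genes, 2 were nominally higher and 5 lower.

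**Figure D2:**
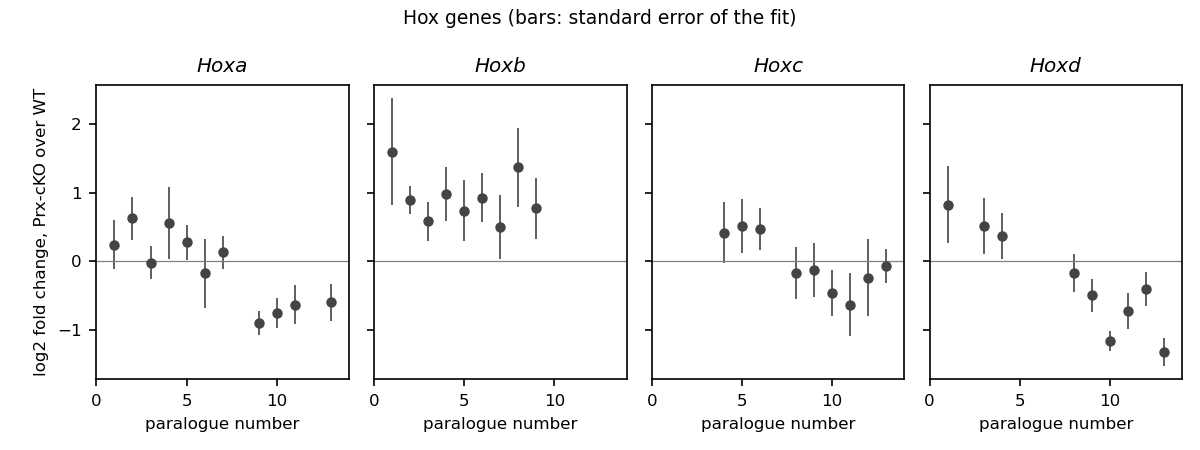
Log2 fold change (Prx-cKO over WT) of each tested Hox gene against its paralogue number, 1 panel per cluster, with bars for the standard error of the fit. All points of HoxA and HoxD from paralogue 9 on are below 0, and all points of HoxB are above 0.

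Signalling pathways of the limb held members on both sides. In the Fgf list 5 of 25 were nominally higher and 4 lower, with a median of 0.04. Fgf8, the ligand of the apical ectodermal ridge, was at 14.1 and 13.1 CPM in WT against 23.8 and 26.6 in Prx-cKO, and Etv4, a transcriptional target of Fgf signalling, at 53.8 and 42.5 against 93.0 and 94.3. Both were higher in both knockout libraries. Of the receptors, Fgfr4, which muscle precursors express, was at 21.8 and 17.1 CPM in WT against 56.8 and 38.0 in Prx-cKO, and Fgfr2 at 92.7 and 111 against 62.7 and 55.2. Fgfr3, a receptor of chondrocytes, was at 21.7 and 44.9 CPM in WT against 14.8 and 11.2 in Prx-cKO. Fgf18, a ligand acting on cartilage, was at 9.85 and 13.1 CPM in WT against 4.77 and 3.29 in Prx-cKO. So Fgfr4 was on the higher side, and Fgfr2, Fgfr3 and Fgf18 were on the lower side, without overlap.

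In the hedgehog list 3 of 17 were nominally higher and 3 lower. Shh, the ligand of the posterior organiser, was at 1.94 and 0.780 CPM in WT against 3.30 and 6.71 in Prx-cKO. Shh was low, and each genotype spread by about 2 times or more in it. Ptch1 and Gli1, the standard targets of the pathway, were at 81.1 and 116 CPM in WT against 78.3 and 108 in Prx-cKO and at 104 and 90.9 against 117 and 113, and neither was nominal.

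In the Wnt list 8 of 43 were nominally lower and 6 higher, with a median of −0.05. Wnt5a, a ligand of the distal mesenchyme, was at 206 and 257 CPM in WT against 119 and 136 in Prx-cKO, and Rspo3, an amplifier of Wnt signals, at 25.4 and 28.9 against 10.2 and 10.3. The secreted antagonists Sfrp2 and Wif1 were at 117 and 133 CPM in WT against 65.0 and 53.4 in Prx-cKO and at 47.8 and 48.5 against 26.2 and 24.4. A ligand, an amplifier and 2 antagonists were thus all lower without overlap, and DESeq2 called the 4. Sp5, a direct target of beta-catenin, was at 1.56 and 1.46 CPM in WT against 5.95 and 7.95 in Prx-cKO, a log2 fold change of 2.21 (SE 0.33). Wnt6, an ectodermal ligand, was at 75.9 and 80.2 CPM in WT against 110.3 and 115 in Prx-cKO, nominally higher but not called by DESeq2.

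In the Bmp and Tgfb list 6 of 32 were nominally lower and 1 higher, with a median of −0.13 (−0.29 to −0.08 over all settings). Id4, a Bmp-responsive inhibitor of helix-loop-helix factors, was at 11.7 and 11.3 CPM in WT against 3.20 and 3.13 in Prx-cKO. Its relatives Id1 and Id3 were at 255 and 238 CPM in WT against 242 and 261 in Prx-cKO and at 302 and 267 against 287 and 329, with overlapping groups. Chrdl1, a secreted Bmp antagonist, was at 39.4 and 51.0 CPM in WT against 17.7 and 16.5 in Prx-cKO, and the ligand Bmp7 was at 80.3 and 80.2 against 115 and 105, on the higher side. Notch genes had a median of 0.32, which was 0.07 without WT replicate 1, and 6 of 19 were nominally higher and 1 lower. The Notch target Heyl was at 9.38 and 11.1 CPM in WT against 17.9 and 20.7 in Prx-cKO and the ligand Dll3 at 3.57 and 4.49 against 1.08 and 1.21, in opposite directions. Retinoic acid genes had a median of 0.04. Cyp26b1, which clears retinoic acid from the distal limb, was at 176 and 197 CPM in WT against 98.6 and 134 in Prx-cKO, and Crabp1, a retinoic acid binding protein, at 195 and 129 against 288 and 323.

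Genes of cells that enter the limb were higher for muscle precursors, macrophages and endothelium, and close to WT for blood. Myogenic regulators had a median of 1.04, with 8 of 13 nominally higher and 0 lower. Pax3 and Lbx1, which mark migrating precursors, were at 3.09 and 3.16 CPM in WT against 11.6 and 13.3 in Prx-cKO and at 13.3 and 11 against 34.1 and 33.9. Myod1, which commits myoblasts, was at 40.8 and 42.9 CPM in WT against 120.5 and 79.9 in Prx-cKO, and Myog, which differentiates them, at 63.6 and 59.3 against 164 and 88.7. All 4 were higher in both knockout libraries, and the last 2 were higher in replicate 1 than in replicate 2. Contractile genes followed replicate 1: the summed level of 25 sarcomere genes was 591 and 531 CPM in WT and 1444 and 637 CPM in Prx-cKO. Their median of 0.82 became 0.16 when Prx-cKO replicate 1 was left out and 1.36 when replicate 2 was. Actc1, the embryonic muscle actin, was at 120.2 and 124 CPM in WT against 392 and 156 in Prx-cKO. Cdh15, the cadherin of muscle precursors, was higher in both, at 26.7 and 22.3 CPM in WT against 67.2 and 53.5 in Prx-cKO.

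Macrophage genes had a median of 0.93, with 14 of 24 nominally higher and 0 lower, and 8 were called by DESeq2. Their summed level was 129 and 131 CPM in WT and 234 and 218 CPM in Prx-cKO. C1qb and C1qc, complement subunits of tissue macrophages, were at 9.17 and 8.49 CPM in WT against 24.9 and 26.8 in Prx-cKO and at 7.13 and 6.16 against 19.1 and 17.0. Spi1, the factor that defines myeloid cells, was at 2.62 and 2.45 CPM in WT against 8.0 and 7.42 in Prx-cKO, and Csf1r, the receptor for their growth factor, at 7.21 and 8.58 against 15.8 and 16.1. The groups of these 4 genes did not overlap.

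Endothelial genes had a median of 0.41, with 8 of 24 nominally higher and 1 lower. The lower member was Erg, which is also a joint gene. Cdh5, the endothelial cadherin, was at 34.8 and 37.0 CPM in WT against 49.3 and 48.4 in Prx-cKO, and Tie1, a vessel receptor, at 22.9 and 22.9 against 36.2 and 35.0. The sum of the list was 429 and 399 CPM in WT and 568 and 563 CPM in Prx-cKO. Pericyte and smooth muscle genes had a median of 0.24, with 2 of 12 nominally higher and 1 lower. The lower member was Cspg4, which mesenchyme and early cartilage also express, at 18.4 and 25.0 CPM in WT against 7.06 and 6.24 in Prx-cKO. Erythroid genes had a median of −0.01, with 0 of 17 nominally higher and 0 lower, and their sum of 5366 and 3971 CPM in WT overlapped that of 4869.7 and 4191 CPM in Prx-cKO. Surface ectoderm genes had a median of 0.18 (0.07 without Prx-cKO replicate 2), with 2 of 23 nominally higher and 0 lower. The keratin Krt5 was at 279 and 353 CPM in WT against 382 and 492 in Prx-cKO and Krt14 at 144 and 195 against 148 and 112. Schwann and neural crest genes and neuronal genes had medians of 0.28 and 0.24, and these took either sign over the settings. The part that cell composition has in the other results was not tested.

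**Figure D3:**
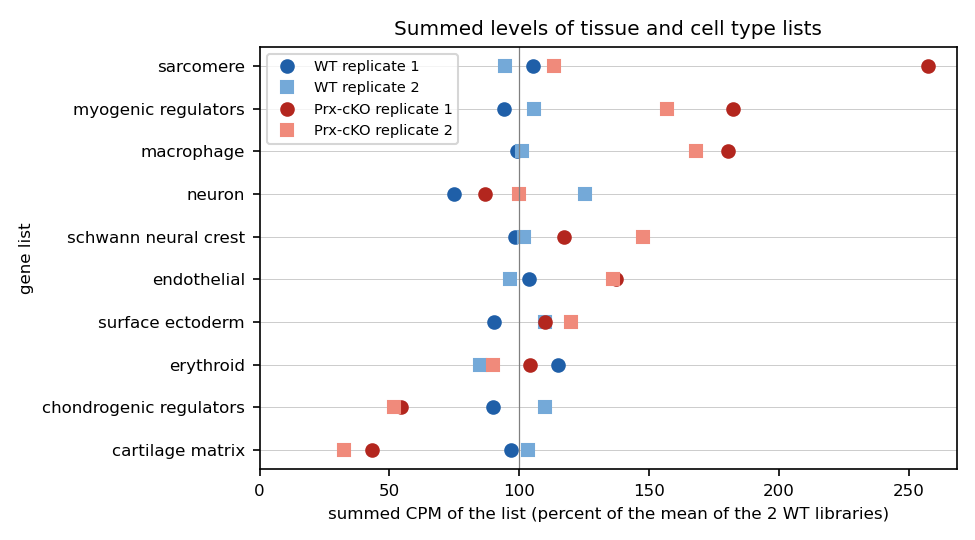
Summed CPM of 10 lists in each library, as a percent of the mean of the 2 WT libraries, with 1 point per library and a line at 100%. The knockout points lie at 43.2% and 32.3% for cartilage matrix, at 180.3% and 168% for macrophage genes and at 257% and 114% for sarcomere genes. Summed over all tested genes, which are not drawn, the knockout libraries were at 103.9% and 110.2%.

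Genes of proliferation lay on the higher side or near 0. DNA replication genes had a median of 0.37 (0.25 to 0.50 over all settings), with 12 of 34 nominally higher and 0 lower. With a term for the Xist-high libraries in the fit, 5 of 34 (14.7%) were nominally higher, against 2.98% of all genes. Cdt1, which licenses origins, was at 58.3 and 65.1 CPM in WT against 97.2 and 96.7 in Prx-cKO, and Ccne1, the cyclin of S phase entry, at 74.9 and 63.0 against 108 and 137. Neither overlapped between genotypes. Fen1, a flap nuclease whose exons overlap another model, was at 20.4 and 24.0 CPM in WT against 101 and 37.2 in Prx-cKO, so most of its difference lay in 1 library. Mitotic genes had a median of 0.18 (0.10 without Prx-cKO replicate 2), with 5 of 30 nominally higher and 0 lower. The number nominally higher was 0 of 30 both with the Xist term and with no filter, against 2.98% and 3.35% of all genes. Mki67, the common proliferation marker, was at 328 and 581 CPM in WT against 345 and 363 in Prx-cKO, with overlapping groups. The inhibitors of cyclin-dependent kinases were on opposite sides: Cdkn1a was higher, as given above, and Cdkn1b, which encodes p27, was at 42.5 and 50.8 CPM in WT against 22.4 and 22.2 in Prx-cKO, a log2 fold change of −1.06 (SE 0.18).

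Genes for building ribosomes in the nucleolus were higher against both WT libraries. Of 35 tested, 34 had a positive log2 fold change and 13 were nominally higher, with 0 lower and a median of 0.40. The median difference of the 2 knockout libraries was 0.39 and 0.48 from WT replicate 1 and 0.37 and 0.45 from WT replicate 2. Nop2, an rRNA methyltransferase, was at 84.2 and 88.9 CPM in WT against 123 and 145 in Prx-cKO, and Npm1, nucleophosmin, at 1024 and 899 against 1502 and 1105. Subunits and factors of RNA polymerases I and III had a smaller median of 0.18 (0.04 without WT replicate 1), with 5 of 31 nominally higher and 0 lower. The number nominally higher was 0 of 31 with the Xist term and 1 of 31 with no filter, against 2.98% and 3.35% of all genes. Aminoacyl-tRNA synthetases had a median of 0.33 (0.23 to 0.42 over all settings), with 11 of 38 nominally higher and 0 lower. With a term for the Xist-high libraries in the fit, 2 of 38 (5.26%) were nominally higher, against 2.98% of all genes.

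Ribosomal protein and respiratory chain genes differed by an amount that depended on the WT library. Of 80 ribosomal protein genes 77 had a positive log2 fold change, 10 were nominally higher and 0 lower, and the fitted median was 0.36. The median difference of the 2 knockout libraries was 0.49 and 0.65 from WT replicate 2, but 0.07 and 0.15 from WT replicate 1, and WT replicate 2 differed from WT replicate 1 by −0.46. Of 76 nuclear genes of oxidative phosphorylation 24 were nominally higher and 0 lower, with a median of 0.37. Their median differences were 0.64 and 0.71 from WT replicate 2 and 0.13 and 0.20 from WT replicate 1. Without WT replicate 2 the fitted medians of the 2 lists were 0.12 and 0.14, and 5 and 10 members were nominally higher. Without WT replicate 1 they were 0.56 and 0.65, with 34 and 56 nominally higher. Rplp0, a stalk protein of the ribosome, was at 2273 and 2675 CPM in WT against 4185 and 5319.9 in Prx-cKO, far from both WT libraries. Mitochondrial ribosomal proteins had a median of 0.36, with 20 of 78 nominally higher and 0 lower, and 12 nominally higher without WT replicate 2.

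A like split was seen over all protein-coding genes ordered by their length on the genome. For 1861 genes of up to 5 kb, the median log2 difference from WT replicate 2 was 0.32 and 0.33 in the 2 knockout libraries, and for 885 genes over 200 kb it was −0.43 and −0.42. From WT replicate 1 the same medians were 0.06 and 0.06 for the short genes and −0.08 and −0.09 for the long ones. The difference of WT replicate 2 from WT replicate 1 ran from −0.24 to 0.32 over these classes, and that of the knockout libraries from each other was 0.03 and 0.02. In the fit over all 4 libraries, 9.92% of the genes from 5 to 20 kb were nominally higher and 3.47% lower, against 1.58% and 13.6% of those over 200 kb. The part that the difference between the WT libraries has in these nominal shares was not tested.

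**Figure D4:**
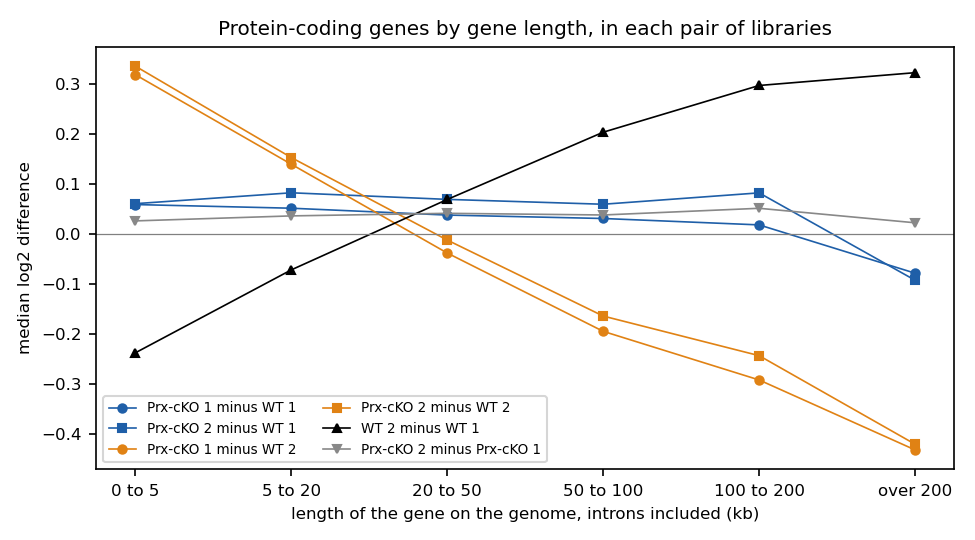
Median log2 difference of protein-coding genes in 6 classes of gene length (kb, introns included), with 1 line for each pair of libraries. The lines against WT replicate 1 (blue) and between the knockout libraries (grey) stay close to 0 up to 200 kb, whereas those against WT replicate 2 (orange) and between the WT libraries (black) slope across all classes.

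Central carbon metabolism was higher against both WT libraries. The TCA cycle list had a median of 0.32 (0.22 to 0.42 over all settings), with 8 of 21 nominally higher and 0 lower. Mdh2, mitochondrial malate dehydrogenase, was at 228 and 221 CPM in WT against 341 and 376 in Prx-cKO. The glycolysis list had a median of 0.35, with 5 of 21 nominally higher and 1 lower, and its median fell between 0.17, with Prx-cKO replicate 2 left out, and 0.57, with replicate 1 left out. Gapdh, often used as a reference gene, was at 528 and 816 CPM in WT against 1224 and 1443 in Prx-cKO, a log2 fold change of 0.99 (SE 0.26). Aldoa, aldolase A, was at 318 and 318 CPM in WT against 470.4 and 531 in Prx-cKO. None of these 3 genes overlapped between genotypes. Cholesterol synthesis lay on the other side mainly in Prx-cKO replicate 1, with a median of −0.15 (−0.05 without Prx-cKO replicate 1 and −0.29 without replicate 2). Of its 22 genes 2 were nominally lower and 0 higher, against 4.61% and 5.87% of all genes. In 9 of the 22 both knockout libraries were the lower, and in 0 the higher, against 21% and 22.2% of all genes. The summed level was 97.0% and 103% of the WT mean in WT against 82.4% and 99.5% in Prx-cKO. Transcripts of the mitochondrial genome had a median of −0.29, which was near 0 without WT replicate 1.

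**Figure D5:**
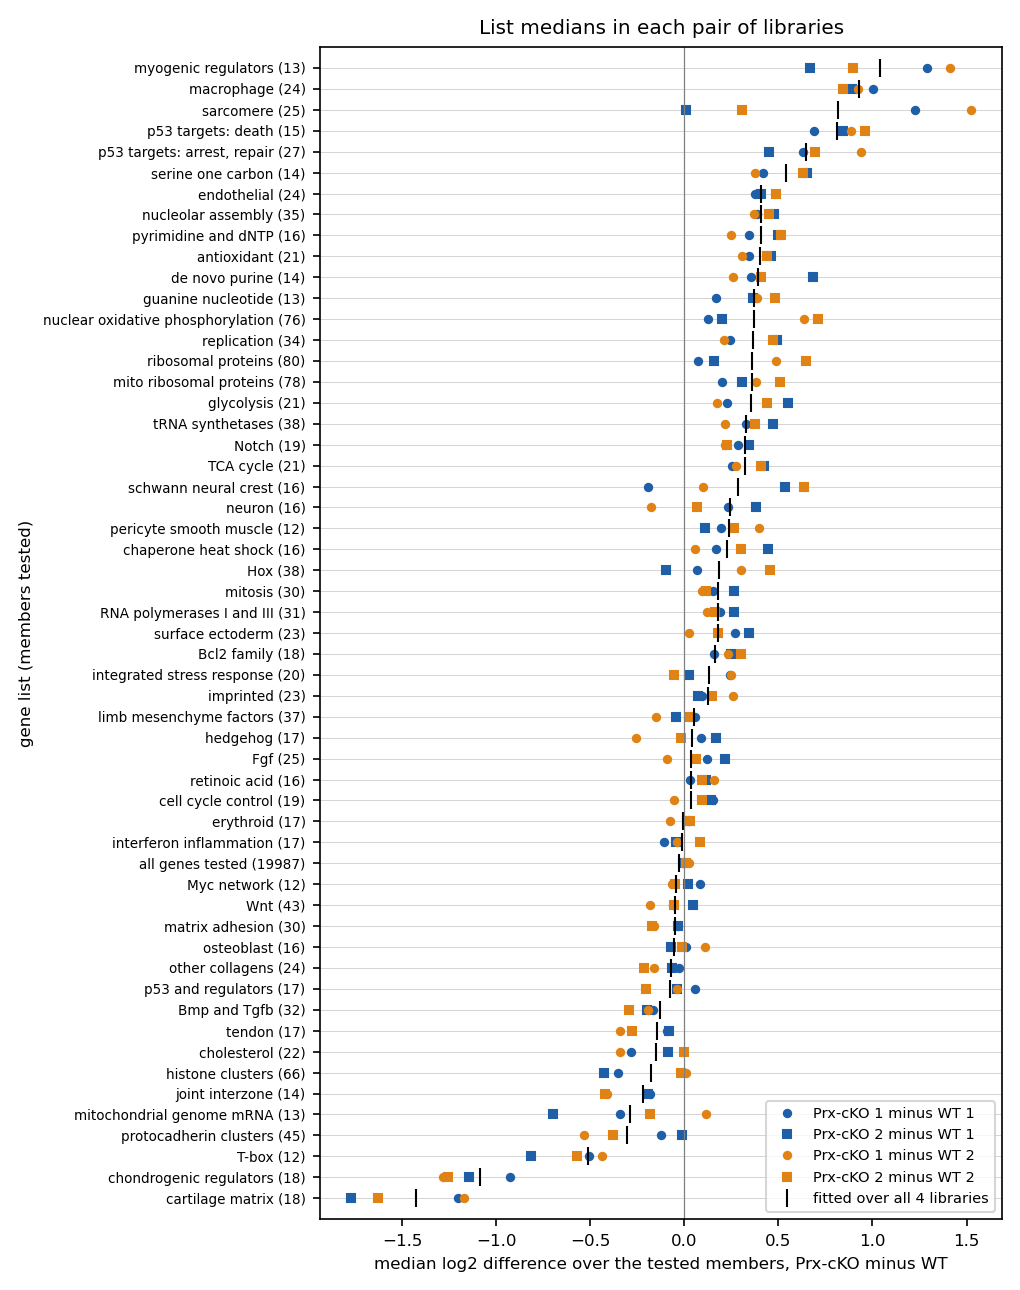
Median log2 difference (Prx-cKO minus WT) over the tested members of each gene list, with coloured points for the 4 pairs of a Prx-cKO and a WT library and a black bar for the fit over all 4 libraries. The cartilage lists lie below 0 and the p53 arrest, p53 death, macrophage and myogenic lists above 0 in all 4 pairs. Ribosomal protein and nuclear oxidative phosphorylation genes, like several other lists, are also above 0 in all 4 pairs, but by an amount that depends on the WT library.

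Several genes outside every list differed by a large factor. Ebf1, a helix-loop-helix factor of mesenchymal lineages, was at 44.2 and 89.9 CPM in WT against 6.64 and 4.46 in Prx-cKO, a log2 fold change of −3.61 (SE 0.44). Rflna, a refilin that acts with filamin in chondrocytes, was at 10.8 and 13.5 CPM in WT against 1.84 and 2.09 in Prx-cKO. Hpse2, which encodes a heparanase-like protein, was at 3.31 and 10.7 CPM in WT against 1.15 and 0.705 in Prx-cKO. All 3 were lower in both knockout libraries, and the WT libraries differed from each other by more than 2 times in Ebf1 and Hpse2. Miat, a long non-coding RNA, was at 57.7 and 92.1 CPM in WT against 18.3 and 8.08 in Prx-cKO. Fbxo41 was at 19.1 and 22.3 CPM in WT against 5.22 and 6.48 in Prx-cKO and Pianp at 6.90 and 5.56 against 1.74 and 1.80. On the higher side, Ano3, a member of the anoctamin family, was at 0.236 and 0.348 CPM in WT against 9.46 and 8.98 in Prx-cKO, and Inka2, an inhibitor of the kinase Pak4, at 3.73 and 4.56 against 19.9 and 19. Dcxr, a carbonyl reductase of xylulose metabolism, was at 9.38 and 7.05 CPM in WT against 28.1 and 36.1 in Prx-cKO, and Golph3l, a Golgi protein, at 10.7 and 9.47 against 32.2 and 36.0. DESeq2 called these 4 genes, and each had knockout libraries close to each other. Cd36, a scavenger and fatty acid receptor, was at 1.68 and 1.57 CPM in WT against 6.54 and 4.87 in Prx-cKO, and Abcb1b, a drug efflux pump, at 1.82 and 2.26 against 7.44 and 6.24.

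Some of the smallest p-values came from gene models that share exons, where reads can be divided between neighbours in more than 1 way. Cpne1, a copine, was at 118 and 105 CPM in WT against 25.3 and 26.1 in Prx-cKO, and Gm28036, whose exons it shares, at 3.31 and 12.54 against 81.8 and 87.5. Their sum was 121 and 117 CPM in WT and 107 and 114 CPM in Prx-cKO, so the pair together differed by far less than either model. Gm45717 was at 0.614 and 0 CPM in WT against 162 and 168 in Prx-cKO, and Ifitm2, an interferon-inducible membrane protein with shared exons, at 227 and 184 against 101 and 99.2. The sum of that pair was 228 and 184 CPM in WT and 262 and 267 CPM in Prx-cKO. Ube2v1 was at 11.8 and 23.8 CPM in WT against 147 and 26.1 in Prx-cKO, and the overlapping model Gm20431 at 98.1 and 100.1 against 0 and 138, so Prx-cKO replicate 1 was high in the first and at 0 in the second. Pcdhga1 was at 1.44 and 2.23 CPM in WT against 39.3 and 51.8 in Prx-cKO, and its exons overlap those of the other gamma protocadherins. Values of these genes are uncertain for that reason. Overlapping exons are common in the data, with 7138 of the 19987 tested genes affected. Of the genes with the largest differences, Ano3, Ptprv, Cdkn1a, Rnasek, Shh, Eomes, Yy2, Miat, Pax9 and Gdf5 also overlap the exons of another model. The same holds for Abcb1b, Aldoa, Bax, Bcl2, Col9a3, Csf1r, Fgfr2, Fgfr3, Gapdh, Gli1, Gmpr, Gmpr2, Golph3l, Hand2, Has2, Hoxa9, Hoxb2, Hoxd10, Id4, Krt5, Mkx, Nt5c2, Pdgfra, Pitx1, Pth1r, Rspo3, Sfrp2, Sox5, Tbx18, Tk1, Trps1 and Wnt5a among the other genes given here.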

How the data were processed

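RNA-seq counts of 2 WT and 2 Prx-cKO forelimbs were used; the osteoclast cultures of the series were not used here. The authors deposited whole-number counts per Ensembl gene, made from mRNA libraries of TRIzol-extracted RNA per the labels' protocols. FastQC 0.11.2, Trimmomatic 0.36, HISAT2 2.1.0, DESeq2 1.12.4 and build GRCm38 are named in the submitters' processing notes. The counting tool, its annotation and its use of strand are not given in the sources used here. Of 51826 identifiers, 51633 (99.6%) had a symbol in GENCODE M21 (GRCm38), which also gave positions, lengths and overlapping exons (7138 of the 19987 tested genes). The replicates of a genotype differed by more than sampling noise (chi-square per degree of freedom 145 and 49.1), so none was counted as a repeat deposit of another.

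Genes were kept by filterByExpr, scaled by TMM and tested with edgeR 4.0.16 quasi-likelihood (R 4.3.3, Benjamini-Hochberg adjustment over 19987 genes, threshold 0.05). CPM are TMM-scaled, and list medians between pairs of libraries used log2 CPM with a prior count of 2. DESeq2 1.42.0, limma-voom (limma 3.58.1), other scalings and filters, a replicate block, an Xist term, removal of overlapping genes and leaving out each library were alternatives. The test was checked on simulated data.

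The 54 gene lists, the markers and the comparison were chosen with earlier results of these data known. Named genes were Impdh2 and its list, the 12 largest nominal differences each way with at least 5 CPM and no overlap (Gm, Rik and clone names, chromosome Y and Xist left out), the 10 smallest p, the 10 largest each way outside every list by the same rule, and in each list the 4 smallest p and the 3 highest CPM (5 for cell types). Genes outside that rule were named after their values were seen: Aen, Bcl2, Col9a3, Col11a1, Csf1r, Ddr2, Ddx3y, Fgfr2, Fgfr3, Gli1, Gm5805, Gm8430, Gm11878, Gm20431, Gm28036, Gtse1, Hoxb6, Hoxd12, Ifitm2, Mdm2, Pdgfra, Pitx1, Prrx2, Ptch1, Sox5, Tbx3, Tbx4, Xist and Zmat3. A few genes that the rule would name are not reported here.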

Additional observations from a re-analysis of the deposited data

How the results depend on the processing

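edgeR with its older dispersion method, limma-voom, RLE scaling, library size alone, no filter, a 1 CPM filter and the removal of genes with overlapping exons each gave 0 calls, as edgeR with TMM did. DESeq2 called 393 genes, and a term for the Xist-high libraries in edgeR gave 1 call. With 1 library left out the calls ran from 0 to 603, the nominally higher genes from 339 to 1995 and the nominally lower from 272 to 2103. With 1 library left out a genotype has a lone sample, which is assumed to vary like the other genotype. The nominally higher genes numbered 756 with library size alone and 595 with the Xist term, and the nominally lower 443 with the Xist term and 544 without genes with overlapping exons. The cause of each was not tested beyond the smaller number of genes in the last. Library size alone moved the median of all genes from −0.03 to −0.13, so directions within about 0.1 of 0 depend on the scaling.

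The replicate block could not be taken as a pairing, since the labels do not say that a number marks a shared litter or day. Deviations of same-numbered libraries correlated with r = 0.261 across genes, from 2 pairs. With the replicate block edgeR made 0 calls, 1470 genes were nominally higher and 1237 lower, and Impdh2 had a log2 fold change of −0.53.

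Impdh2 was lower under every setting run, from −0.41 without Prx-cKO replicate 1 to −0.65 without Prx-cKO replicate 2, and passed under none. Of the 167 genes named with values, 105 passed in DESeq2, 85 without WT replicate 1 and 28 without WT replicate 2. Among these, direction turned only in genes that no setting called. Outside them, Gm11878, Gm5805 and Gm8430 were called higher without WT replicate 1 and lower without WT replicate 2. Library size alone gave −0.018 for Gmps, −0.068 for Id1 and −0.00090 for Mcl1, and no filter gave −0.0026 for Id1. Over the fits with 1 library left out, Atf4 ran from −0.017 to 0.24, Gm20431 from −15.20 (against a library at 0 counts, so its size is no bound) to 0.49, Id1 from −0.023 to 0.10, Mcl1 from −0.039 to 0.24, Mdm2 from −0.31 to 0.14, Mki67 from −0.75 to 0.12, Nt5c2 from −0.20 to 0.078, Prrx2 from −0.31 to 0.031, Ptch1 from −0.34 to 0.21 and Twist1 from −0.011 to 0.34. Of 54 list medians, 35 kept their sign under all settings, among them the p53 arrest, p53 death, cartilage, macrophage, endothelial and myogenic lists. The 19 that did not include limb mesenchyme factors, Fgf, Wnt, hedgehog, tendon and osteoblast genes. The number of libraries, 2 per genotype, limits the precision of every value.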

Other observations

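Imprinted genes, which control embryonic growth, were shifted by a median of 0.12 (0.01 without Prx-cKO replicate 1) on the log2 scale (3 of 23 nominally higher and 0 lower in edgeR). Peg3, a paternally expressed zinc finger gene, was at 597 and 635 CPM in WT against 871 and 851 in Prx-cKO. The growth factor gene Igf2 was at 2238 and 1677 CPM in WT against 1654 and 700.0 in Prx-cKO. The 2 knockout libraries differed from each other by more than 2 times in Igf2. Mest, expressed across the mesoderm, was at 1609 and 1649 CPM in WT against 1901 and 2164 in Prx-cKO.

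Histone genes had a median of −0.18, with 3 of 66 nominally higher and 2 lower, and the median was −0.03 without WT replicate 1. H1f0, a linker histone of cells leaving the cycle, was at 485 and 516 CPM in WT against 336 and 346 in Prx-cKO, and H2afx, whose phosphorylated form marks DNA breaks, at 384 and 411 against 507 and 541. Neither overlapped between genotypes. Clustered protocadherins had a median of −0.31, with 1 of 45 nominally higher and 3 lower, and the median was near 0 without WT replicate 2.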
